A study of Mus musculus with 16 samples.

Results

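Respiratory complex I, the NADH:ubiquinone oxidoreductase of the inner mitochondrial membrane, is described here through the transcripts of its nuclear-encoded subunits in mouse ventricles. The members were every gene whose symbol begins with Nduf, continues with a, ab, b, c, s or v and ends in a number, without Ndufa4 and Ndufa4l2, since Ndufa4 is now counted as a subunit of complex IV. This gave 36 of the 23946 genes in the deposited table, and all 36 passed the filter on low values, although Ndufs5, Ndufab1 and Ndufb4 passed it at very low levels. Ndufb1 and the subunits encoded by mitochondrial DNA are not analysed here.

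The libraries came from adult male FVB mice of 10 to 13 weeks, and polyA RNA was sequenced from the free walls of the right and the left ventricle. Right ventricular failure had been produced by banding the pulmonary artery, and the controls were sham-operated; no transgene or drug is named in the labels. There were 4 groups of 4 libraries: sham right ventricle, banded right ventricle, sham left ventricle and banded left ventricle, where the banded libraries carry the treatment label PS, read here as banding. Nothing in the labels says that libraries are separate animals, so the p-values below cover no more than library-to-library spread, part of which may be technical. Each group is a wall of whole tissue, in which fewer cells of a type and less RNA per cell cannot be told apart.

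Complex I passes electrons from NADH to ubiquinone and uses the energy to pump protons across the inner membrane, and in cardiac muscle it is a main entry point of electrons for ATP production. It is built from modules. The N module, at the tip of the arm that reaches into the matrix, oxidises NADH; the Q module below it reduces ubiquinone; and the P module in the membrane pumps protons, with a proximal part next to the Q module and a distal part at the far end. The 36 members comprised 10 subunits of the N module, 6 of the Q module, 9 of the proximal and 11 of the distal P module. The catalytic core conserved from bacteria supplied 7 of them, among them Ndufv1, Ndufs1, Ndufs3 and Ndufs7, and the other 29 were supernumerary subunits. Sources place Ndufa6, Ndufa7, Ndufa9, Ndufa12, Ndufs4, Ndufs6 and Ndufab1, at the borders of modules, differently.

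The promoters of 32 of the 36 members had an entry in RefSeq (GRCm38.p6, 250 bases before to 50 after the annotated start). Of 4 motifs searched as exact letters on both strands, the YY1 element AAGATGGC was present in 7 of these 32 promoters (21.9%), against 2.75% of all 32851 promoters. In all 7 the element lay on the sense strand after the transcription start, an arrangement found in 0.865% of all promoters. Its first base fell 23 to 39 bases after the start, and its ATG was the annotated start codon in each of the 7. An element of this kind over the start codon of a short leader is known as a TISU. The 30-base windows below are shown because these 7 subunits share letters that the choice of members did not use; the element is in capitals.
Ndufs6: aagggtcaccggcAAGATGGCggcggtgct
Ndufs4: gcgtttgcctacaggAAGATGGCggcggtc
Ndufs7: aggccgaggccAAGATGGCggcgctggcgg
Ndufa9: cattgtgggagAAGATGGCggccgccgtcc
Ndufa3: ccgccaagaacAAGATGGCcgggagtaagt
Ndufc1: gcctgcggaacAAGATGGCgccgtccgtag
Ndufb8: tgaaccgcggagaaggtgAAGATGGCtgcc
These windows lie in GRCm38.p6, at chr13:73328433-73328462, minus strand (Ndufs6), chr13:114388045-114388074, minus strand (Ndufs4), chr10:80249462-80249491, plus strand (Ndufs7), chr6:126849097-126849126, minus strand (Ndufa9), chr7:3617384-3617413, plus strand (Ndufa3), chr3:51408915-51408944, minus strand (Ndufc1) and chr19:44555393-44555422, minus strand (Ndufb8). Each spans the end of the 5′ leader and the first codons.

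Core letters bound by GABP and other ETS factors, CCGGAAG, were present in 4 of the 32 promoters (12.5%; 8.86% of all promoters): those of Ndufb6, Ndufb7, Ndufs3 and Ndufs8. Ndufs3 held them on both strands, around its start, and is shown with Ndufs8 because both encode Q module core subunits whose transcripts are described below. The core is in capitals; the reverse-strand match reads CTTCCGG.
Ndufs3, first match: cccgcgtccgcCCGGAAGaagagtcactgc
Ndufs3, second match: gcacatttccaCTTCCGGtccgtgcccttg
Ndufs8: ttaggctccgcCTTCCGGttgaaccgcatc
They lie at chr2:90904730-90904759, minus strand, at chr2:90904702-90904731, minus strand and at chr19:3912741-3912770, minus strand of GRCm38.p6. The NRF1 core GCGCATGCG was present in 2 promoters (6.25%; 1.75% of all), those of Ndufa8 and Ndufa11. The element TCAAGGTCA, bound by estrogen-related receptors, was in none of the 32 and in 0.423% of all promoters.

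Values are FPKM as deposited, fragments per kilobase of transcript and per size of the library, so levels can be compared between genes. A single highly listed gene, Mir6236, held 21.3% to 59.7% of the FPKM sum of a library. Rn45s, a ribosomal RNA gene, was listed at 0 in 5 banded libraries (right PS_9561 and PS_9564; left PS_9552, PS_9553 and PS_9561) and at high values in the other 11. The files hold no counts; from the steps of the low values, depth was estimated at 3.76e+05 to 1.33e+06 fragments in sham right, 2.37e+06 to 5.31e+06 in banded right, 1.88e+06 to 4.22e+06 in sham left and 3.76e+06 to 9.44e+06 in banded left libraries. The sham right ventricle is thus the shallowest group, with a median of 262 estimated fragments per member, against 790.3 in the banded right ventricle. Differences below are on the log2(FPKM + 1) scale, banded minus sham. A member is said to have risen or fallen only where limma's adjusted p over all 12100 genes tested was under 0.05, with 1 direction, on 2 scales: as deposited, and rescaled, that is, after division by 1 scale factor per library.

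Across the 4 groups, complex I transcripts stood high in the sham right and the banded left ventricle and low in the banded right and the sham left ventricle. The summed level of the 36 members was 26587, 18665, 22148 and 24095 FPKM in the sham right libraries. It was 14189, 12424, 14583 and 10854 FPKM in the banded right libraries, so the right ventricular groups did not overlap. In the left ventricle it was 12754, 12496, 13923 and 19110 FPKM in sham libraries and 28359, 26444, 22308 and 25006 FPKM in banded ones. Sham left library 4 stood above the other sham left libraries. Of the 33 members with a mean above 50 FPKM, 31 had their 2 highest group means in the sham right and the banded left ventricle. The banded right ventricle held the lowest mean of 25. These orders are as deposited, where the median left ventricular difference of all genes was 0.33, and were not counted for other genes. Rescaled, 6 of the 36 members lay below 0 in that comparison.

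**Figure D1:**
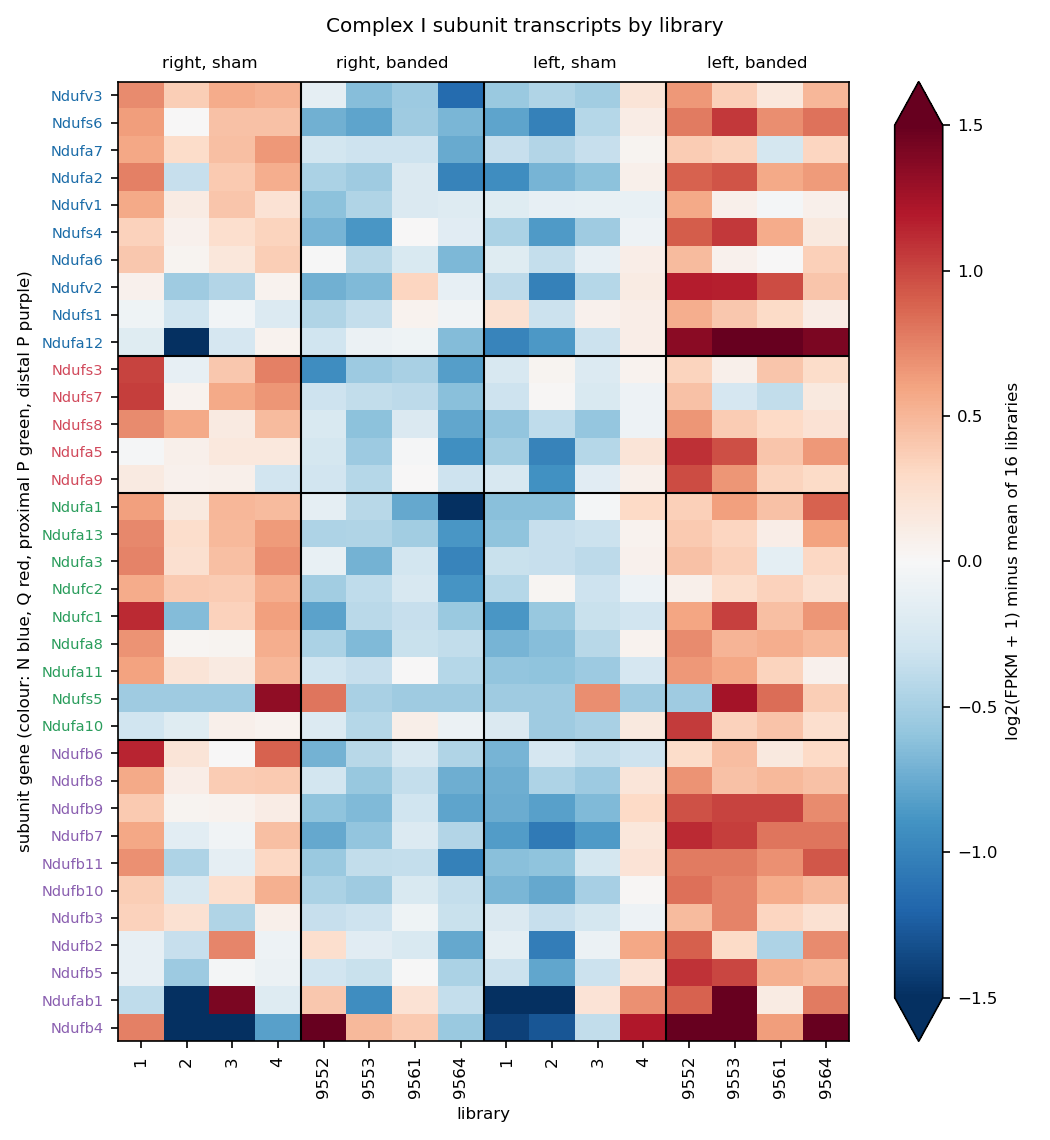
Each row is a subunit gene (35 of the 36), grouped by module, and each column a library, grouped by ventricle and operation; colour is log2(FPKM + 1) minus the gene's mean over the 16 libraries (red higher, blue lower). Sham right libraries 1, 3 and 4 and the banded left libraries are mostly red, and the banded right libraries and sham left libraries 1, 2 and 3 mostly blue; sham right library 2 and sham left library 4 lie near the mean (median deviations of 0.04 and 0.09), and exceptions are the low rows of Ndufs5, Ndufab1 and Ndufb4.

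Summed cardiomyocyte markers were also high in the sham right and banded left ventricle. The 12 markers, sarcomere and calcium-handling genes such as Myh6, Tnni3 and Ryr2, summed to 34343 to 37737 FPKM in sham right, 22250.3 to 31344 in banded right, 23383 to 34894 in sham left and 46333 to 56601 in banded left libraries, and none was at 0 in any group. Highly listed genes such as Myl2 (mean 9743 FPKM in sham right libraries) weigh most in this sum, and not every marker followed it. Ryr2 averaged 78.7 FPKM in sham right and 121 FPKM in sham left libraries. Over the 12 markers, the median right ventricular difference with banding was -0.09 as deposited and -0.28 rescaled, and 4 fell and 1 rose. As a share of that marker sum, the members came to 72.5%, 54.3%, 61.0% and 63.9% in sham right libraries and 63.8%, 50.03%, 46.5% and 35.8% in banded right libraries. In the left ventricle the share was 47.6%, 53.4%, 53.6% and 54.8% with sham and 50.1%, 47.9%, 44.8% and 54.0% with banding. On this share the left groups overlapped, with medians of 53.5% and 49.0%. The right groups overlapped too: banded library PS_9552, at 63.8%, lay above sham libraries 2 (54.3%) and 3 (61.0%) and close to sham library 4 (63.9%). A ratio within a library shows unequal change only, and the part of cardiomyocyte RNA in the subunit levels was not tested.

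**Figure D2:**
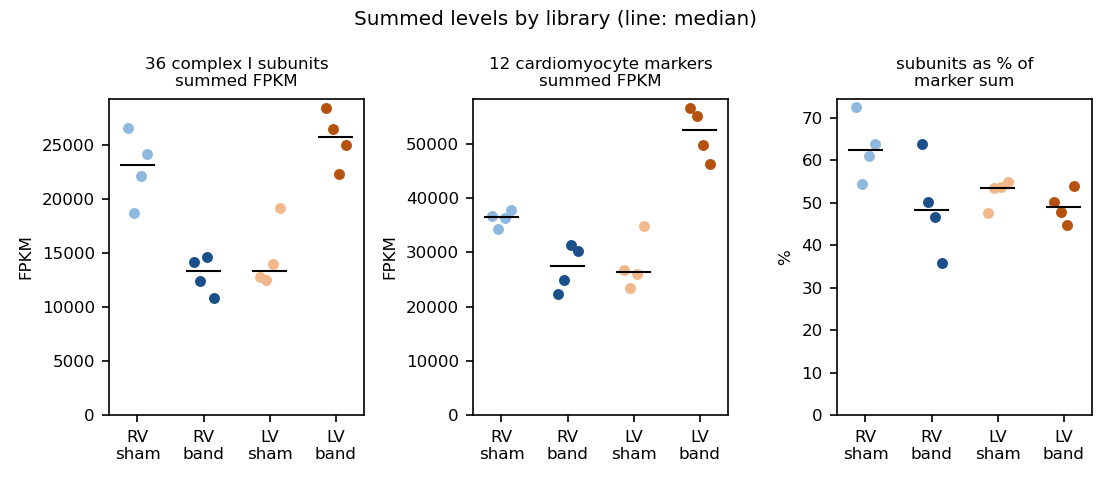
Points are libraries (4 per group) and lines group medians: summed FPKM of the 36 subunits, summed FPKM of the 12 cardiomyocyte markers, and the first as a percentage of the second. Both sums are highest in the banded left ventricle; the percentage is highest in the sham right ventricle, with a median of 62.4%.

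With banding, 21 of the 36 members fell in the right ventricle and 0 rose, where 4.93% of all genes tested fell and 10.5% rose. The median difference of the members was -0.69 as deposited and -0.88 rescaled, against 0.26 and 0.11 for all genes tested. Under 8 scalings or subsets of libraries the members' median stayed below that of all genes by 0.52 to 0.99, although after scaling every library to the same FPKM sum only 24 of 36 members lay below 0 and the median was -0.20. The count of members that fell then dropped to 1, with 1 called higher, Ndufb4. On that scale 1.17% of all genes were called lower and 46.9% higher, and the median of all genes was 0.64. Leaving out the banded libraries with Rn45s at 0, which leaves 2 banded right libraries, gave a median of -0.78 and 8 members called lower. Insulin and other pancreatic transcripts also moved with the groups: of 6 such markers tested 4 fell in the banded right ventricle (Ins1, Ins2, Gcg and Iapp), and the sum of all 13 ranged from 638 to 2142 FPKM in sham right and from 66.1 to 155 FPKM in banded right libraries. Of the 13, Prss1, Prss2, Cpa1 and Pnlip were at 0 in both right ventricular groups, Cela2a only in sham, and Ctrb1 and Ppy only in banded libraries. Cela1, another pancreatic enzyme gene, read 0.75 ± 1.49 FPKM in sham and 1.64 ± 0.82 FPKM in banded right libraries and was above 0 in 1 sham and all 4 banded ones. Their part in the result was not tested.

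In the N module 7 of 10 members fell, with a median of -0.69. Ndufs6, a zinc-binding subunit where the N module meets the Q module, read 1661, 1078, 1461 and 1458 FPKM in sham right libraries and 652, 620.0, 746 and 668 FPKM in banded right libraries. The groups did not overlap, and the difference was -1.06 (SE 0.21, adjusted p = 0.00338), to 0.48 of the sham level. Ndufv3, an accessory subunit, read 1778, 1404, 1600.3 and 1562 FPKM with sham and 995, 698, 747 and 487 FPKM with banding. All sham libraries lay above all banded ones, and banded library PS_9564 was the lowest; the difference was -1.15 (SE 0.21, adjusted p = 0.00224). Ndufv1, which carries the flavin that accepts electrons from NADH, fell from 606 ± 85.4 to 372 ± 51 FPKM (mean ± SD, n = 4), a difference of -0.70 (adjusted p = 0.00686). Ndufa7 (-0.90), Ndufa2 (-0.89), Ndufs4 (-0.68) and Ndufa6 (-0.58) also fell.

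The N module core subunits Ndufs1 and Ndufv2, unlike the core subunit Ndufv1, did not pass the test. Ndufs1, the largest subunit of the matrix arm, read 155, 132, 159 and 142 FPKM with sham and 119, 126, 169 and 157 FPKM with banding, in overlapping ranges (difference -0.05, SE 0.16, adjusted p = 0.841). For Ndufv2 the values were 259, 171, 182 and 257 FPKM and 149, 156, 310.0 and 226 FPKM, again overlapping (difference -0.09, SE 0.27, adjusted p = 0.845). Correcting each library for transcript length and GC content moved Ndufs1 to -0.54 (adjusted p = 0.00531). Ndufa12, a small accessory subunit, read 82.7, 12.4, 79 and 98.1 FPKM and 76.3, 88.9, 89.9 and 59.6 FPKM; without sham right library 2, the one at 12.4, its difference turned from 0.53 (adjusted p = 0.429) to -0.15.

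Of the Q module, 3 of 6 members fell and the median was -0.73. Ndufs3, a core subunit of the matrix arm without a metal cluster of its own, read 369.7, 167, 241 and 309.5 FPKM in sham and 95.4, 125, 130.3 and 102 FPKM in banded right libraries. This was the lowest difference of any member, -1.21 (SE 0.20, adjusted p = 0.00105), and no banded library reached the sham range. Ndufs7, which holds the last iron-sulfur cluster before ubiquinone, read 2351, 1194, 1703 and 1817 FPKM with sham and 925, 888, 875 and 745 FPKM with banding (difference -1.005, SE 0.21, adjusted p = 0.00442). The sham libraries spread widely, yet the lowest still exceeded the highest banded one. Ndufs8, another iron-sulfur subunit, fell from 543 ± 88.7 to 286 ± 54.4 FPKM (difference -0.93, adjusted p = 0.00274). The accessory subunits Ndufa5 (-0.53, adjusted p = 0.119) and Ndufa9 (-0.25, adjusted p = 0.389) did not pass.

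In the proximal P module, 7 of 9 members fell, with a median of -0.88; in the distal part 4 of 11 fell, with a median of -0.63. Whether the parts differ was not tested. Ndufa1, an X-linked subunit needed to assemble the membrane arm, read 1773, 1282, 1633 and 1599.9 FPKM with sham and 1049, 863, 678 and 352 FPKM with banding (difference -1.19, SE 0.29, adjusted p = 0.0104). Banded libraries all lay below the sham range, with PS_9564 lowest. Ndufa13, also needed to assemble the complex, read 585, 425, 495 and 552 FPKM with sham and 257, 258, 247 and 193 FPKM with banding, and the groups did not overlap (difference -1.10, SE 0.17, adjusted p = 0.000585). Other proximal members that fell were Ndufa3 (-1.05), Ndufc2 (-0.97), Ndufc1 (-0.88), Ndufa8 (-0.78) and Ndufa11 (-0.62), and Ndufa10 read -0.07 (adjusted p = 0.82).

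Among the distal subunits, accessory proteins around the proton channels at the far end of the membrane arm, Ndufb6 (-1.01), Ndufb8 (-0.84), Ndufb9 (-0.74) and Ndufb10 (-0.63) fell. Ndufb9 read 1014, 799, 805 and 835 FPKM with sham and 509, 489, 629 and 447 FPKM with banding, without overlap; its call was lost without sham right library 1 (adjusted p = 0.0602) or banded right library PS_9564 (adjusted p = 0.072). Ndufb7 read 691, 416, 446 and 632 FPKM and 270.5, 306, 401 and 342 FPKM and did not pass as deposited (difference -0.71, SE 0.24, adjusted p = 0.0509). It passed without sham right library 2 (adjusted p = 0.0372), sham left library 2 (0.0466) or sham left library 4 (0.0151). Ndufb4 was listed at 12.7, 0, 0 and 3.61 FPKM in sham and 22.1, 10.3, 9.59 and 4.49 FPKM in banded right libraries (adjusted p = 0.0726; 0.0175 without sham right library 1). Copies or pseudogenes named after Ndufb4, Ndufab1, Ndufs6 and Ndufa11 are annotated, so the share of fragments given to each copy is uncertain, and the levels of Ndufb4, Ndufab1 and Ndufs5 may not represent these subunits.

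**Figure D3:**
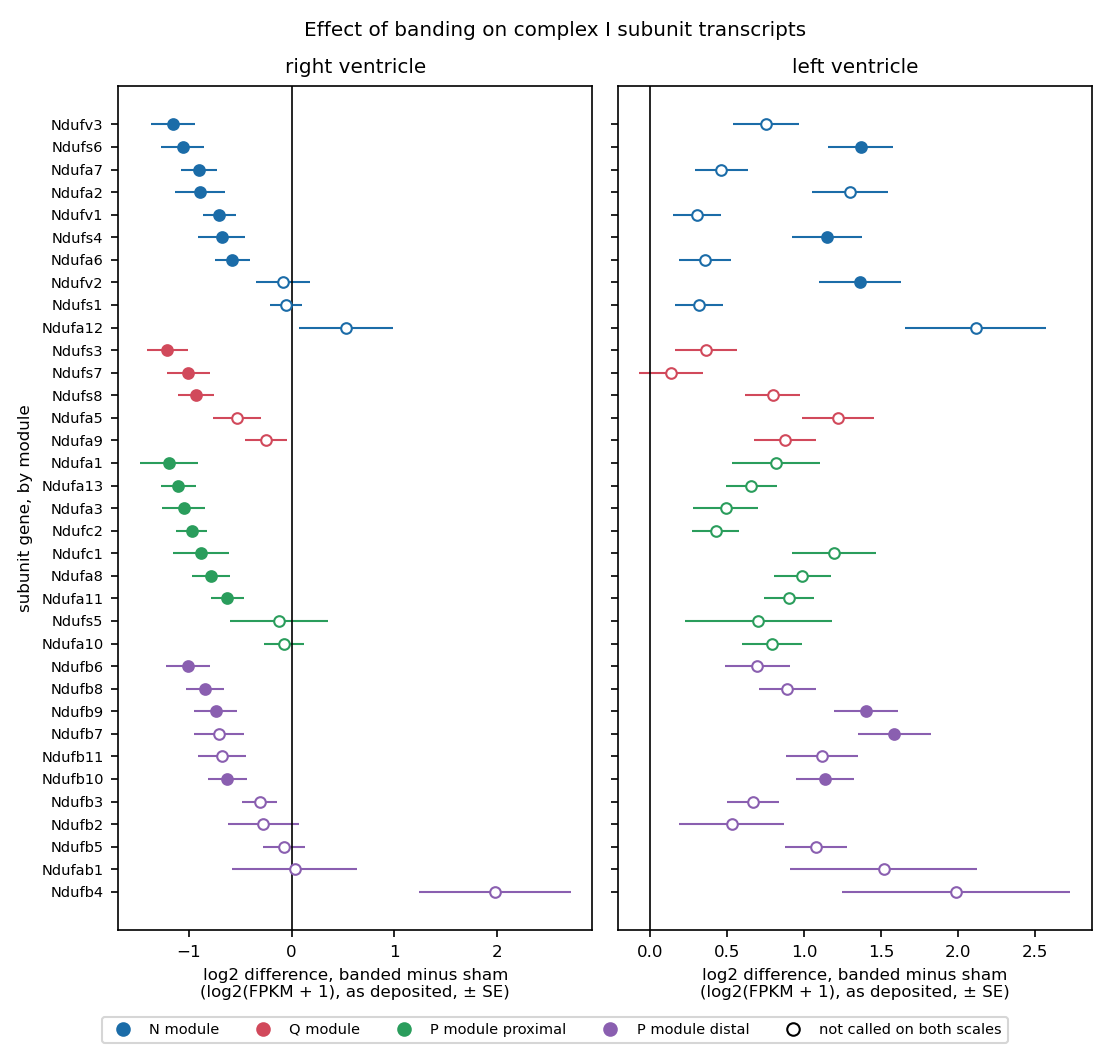
Log2 differences (banded minus sham, as deposited) with standard errors for 35 of the 36 subunits, ordered by module, in the right and the left ventricle; filled points passed the threshold on both scales, open points did not. In the right ventricle 32 of 35 points lie below 0 and 21 are filled; in the left all 35 lie above 0 and 6 are filled.

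Of the 7 members with the YY1 element at the start codon 6 fell in the right ventricle, Ndufa9 being the exception. Among the 25 members with a promoter entry that lack it 13 fell. The median reference transcript was 680 nt in the members with the element and 875 nt in those without. The part of length in these counts was not tested. Outside complex I, 5.02% of 219 genes tested with the element fell, against 4.86% of 8749 without it.

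In the left ventricle 6 of 36 members rose with banding and 0 fell, where 2.44% of all genes tested rose and 0.298% fell. All 36 differences were above 0 as deposited, with a median of 0.85 against 0.33 for all genes; rescaled, 30 were above 0 and the median was 0.48 against 0.01. As deposited alone, 22 would have been called, where 14.3% of all genes were called higher. The 3 banded left libraries with Rn45s at 0 had scale factors of 1.23 to 1.28. Without all 5 libraries with Rn45s at 0, which leaves 1 banded left library, the members' median was 0.83 and all 35 members tested lay above 0; no member was called in limma (15 had an unadjusted p under 0.05), but neither was any other gene, so the lost calls say nothing of these libraries. The members that rose were Ndufs4, Ndufs6 and Ndufv2 of the N module and Ndufb7, Ndufb9 and Ndufb10 of the distal P module. Single libraries moved this count: without sham left library 4, 12 members rose, and without sham left library 2 none did (14 at an unadjusted p under 0.05). Counts also moved by over 1.5 times without sham left library 1 or 3 (1 each), banded left library PS_9553 (1) or PS_9561 (3), or banded right library PS_9564 (11).

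Summed markers of some other cell types were also higher in the banded left ventricle. These sums are as deposited, a scale on which the median difference of all genes was 0.33. Summed fibroblast markers ranged from 563 to 812 FPKM in sham and from 977 to 1560 FPKM in banded left libraries, endothelial markers from 226 to 286 and from 299 to 489 FPKM, and macrophage markers from 60.0 to 100 and from 134 to 201 FPKM, each without overlap. Mural markers ranged from 156 to 190 and from 165 to 245 FPKM, with overlap, and 0 of 6 rose. Rescaled, the median difference was 0.38 for fibroblast, 0.36 for endothelial, 0.42 for macrophage and -0.15 for mural markers, against 0.01 for all genes. Of these lists Pi16, Eng, Vwf and C1qb rose. Kcnj3, of the atrial list, and Ins2, of the pancreatic list, fell. The part of other cells in the left ventricular result was not tested.

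Ndufb9, a distal P subunit, read 459.8, 438, 489 and 951 FPKM in sham left and 1499.7, 1559, 1562 and 1263 FPKM in banded left libraries. The banded libraries all lay above the sham ones, also above sham library 4 (difference 1.40, adjusted p = 0.00116; rescaled 0.996, adjusted p = 0.0203). Ndufb7, another distal subunit, read 259, 221, 256 and 523 FPKM and 1009, 952, 805 and 811 FPKM (difference 1.59, adjusted p = 0.0012; rescaled 1.18, adjusted p = 0.0135). Ndufs6 went from 778 ± 280.1 to 1929.7 ± 216 FPKM (difference 1.37; rescaled 0.96, adjusted p = 0.0249). The core subunit Ndufv2 read 188, 122, 183 and 269.8 FPKM with sham and 561, 556, 489 and 330.4 FPKM with banding, without overlap (difference 1.36; rescaled 0.96, adjusted p = 0.0185). Ndufa12 had the greatest left ventricular difference, 2.12, from 68.6 ± 24.8 to 292 ± 61.4 FPKM, and missed the threshold narrowly after rescaling (adjusted p = 0.0512).

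The core subunits had the lower median in the left ventricle. The median of the 7 core subunits was 0.32 as deposited and -0.08 rescaled, against 0.90 and 0.57 for the 29 supernumerary subunits. After rescaling, 5 of the 7 core subunits lay below 0 and 28 of the 29 supernumerary subunits above it. Ndufs7 was 1039.9 ± 107 FPKM with sham and 1170.5 ± 309 FPKM with banding (rescaled -0.27, adjusted p = 0.602). Whether core and supernumerary subunits differ was not tested.

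**Figure D4:**
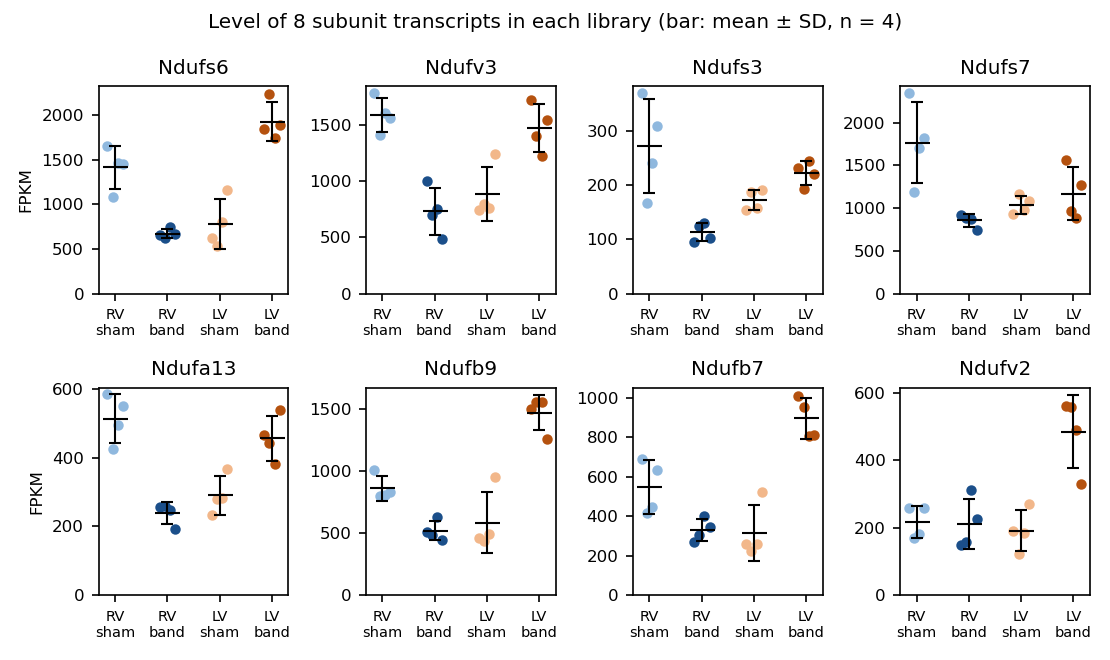
FPKM of 8 subunit transcripts in each library (points), with the group mean and SD (n = 4 each), axes starting at 0. Ndufs6, Ndufv3, Ndufs3, Ndufs7 and Ndufa13 are lower in every banded than in every sham right ventricular library, and Ndufb9, Ndufb7 and Ndufv2 have their highest values in the banded left ventricle.

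The effect of banding differed between the ventricles for 22 of 36 members, all lower in the right, where 3.45% of all genes tested were called in that direction and 0.529% in the other. The members' median difference of effects was -1.56 as deposited and -1.34 rescaled. It involved 7 N module, 3 Q module, 6 proximal and 6 distal P module subunits. Of the 21 members that fell in the right ventricle 18 were among the 22, and so were all 6 that rose in the left. Ndufs6, Ndufs4, Ndufb9 and Ndufb10 both fell in the right and rose in the left ventricle. Ndufs6 had the most negative difference of effects, -2.43 (SE 0.30, adjusted p = 0.00069), followed by Ndufb7 (-2.29) and Ndufa2 (-2.19). Without the 5 libraries with Rn45s at 0, which leaves 1 banded left library, the median was -1.499 and no member was called in limma (25 at an unadjusted p under 0.05), where 0.0263% of all genes were called lower. Of the cardiomyocyte markers Myl2, Myl3, Tcap and Tnni3 were also called lower in this comparison, with Hba-a2 of the erythroid and Stard10 of the atrial markers; their part in the result was not tested.

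Between the ventricles of sham mice, 7 members were higher in the right and 0 lower, where 2.55% of all genes were higher and 1.33% lower: Ndufs6, Ndufs8, Ndufa8, Ndufa11, Ndufa13, Ndufb6 and Ndufb10. The median right minus left difference was 0.65, and 0.24 after correction for length and GC. The pancreatic markers Gcg and Iapp and the cardiomyocyte markers Tcap and Tnni3 were also called higher in the sham right ventricle, as were Gsn, Stard10 and Hba-a2, while Rgs5 was lower. Sham left library 1 had a pancreatic marker sum of 2095 FPKM, against 88.3 to 365 FPKM in the other sham left libraries. The part of these transcripts in the result was not tested. Ndufa11, a proximal P subunit, read 155, 116, 112 and 145 FPKM in right and 67, 66.8, 69.7 and 85.5 FPKM in left sham libraries, without overlap (difference 0.86, adjusted p = 0.0146). Single libraries moved this count: it was 1 without sham left library 1 or 3, 3 without sham right library 1, and 4 without sham right 3 or 4 or sham left 2. It was 11 without sham right 2, 12 without sham left 4 and 13 without banded right PS_9564. Correcting for length and GC kept 1 of the 7, Ndufb6, where 1.30% of all genes were called higher. In banded mice 12 members were lower in the right ventricle and 0 higher, where 1.39% of all genes were lower and 0.182% higher. The median was -0.98, and -0.61 after length and GC. Myh6, Myl2, Pln and Tnni3 of the cardiomyocyte markers and Hba-a2 were lower there too, and Col1a1 was higher. Ndufs6 (-1.52, adjusted p = 0.00253) and Ndufb9 (-1.51, adjusted p = 0.00253) had the smallest p-values. That count was 3 without banded left PS_9552 or PS_9553, 4 without banded right PS_9553, and 5 without banded right PS_9561 or PS_9564 or banded left PS_9564. The 2 comparisons within the ventricles and the 2 between them use the same libraries.

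Most complex I transcripts are short, and short transcripts as a class shifted with the groups. Of the 36 members, 20 have a reference transcript under 900 nt, from 315 nt for Ndufc1. Among other genes, the median right ventricular difference (rescaled) was -0.24 at 600 to under 900 nt, -0.14 at 900 to under 1300 nt, -0.04 at 1300 to under 2000 nt and 0.23 at 4500 nt and over. Members in the same length classes lay lower. At 600 to under 900 nt their median was -0.95 and 7 of 10 fell, where 12.4% of other genes did. At 900 to under 1300 nt it was -0.87 and 3 of 7 fell (11.1% of others), and at 1300 to under 2000 nt it was -0.73 and 3 of 6 fell (6.78% of others). Under 600 nt the median was -1.08 and 8 of 10 fell, against a median of 0.17 and 9.74%. The 3 members over 2000 nt, Ndufs1, Ndufa10 and Ndufab1, did not pass.

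Across the 33 members above 50 FPKM, Pearson's r of log2 length with the rescaled right ventricular difference was 0.43 (Spearman's rho 0.41), while rho was 0.19 across 11968 other genes; the points share the same 8 libraries, so this is a description only. In the left ventricle r was -0.11 across the same 33 members. After each library was corrected for length, all 21 members that fell in the right ventricle were still called. After length and GC, 17 were, without Ndufa6, Ndufa11, Ndufb9 and Ndufb10, and Ndufs1 was among the 2 that were added. Each corrected scale was read alone, not with a second one. On them 10.5% (length) and 8.06% (length and GC) of all genes were called lower, against 4.93% in the main result. After length and GC the members' median was -0.55, from -0.88 rescaled, against 0.02 for all genes. In the left ventricle the median went from 0.48 rescaled to 0.21 after length and 0.30 after length and GC, and 13 of 36 members, in place of 6, lay below 0. Of the 6 calls there, 5 were kept after length and all 6 after length and GC, where 1.94% and 2.32% of all genes were called higher. The median difference of effects went from -1.34 rescaled to -0.94 and -0.87, and 16 of the 22 calls were kept under each correction. Of all genes, 2.39% and 2.53% were called lower in that comparison.

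**Figure D5:**
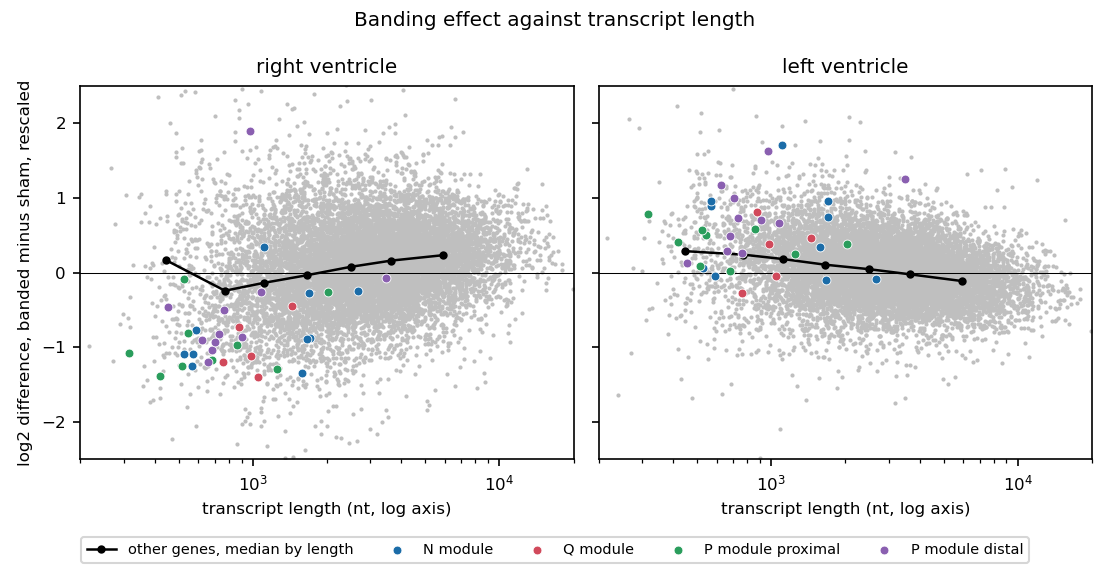
Rescaled log2 difference (banded minus sham) against reference transcript length (log axis) in the right and left ventricle; grey points are other genes, the black line their median by length class, and coloured points 35 of the 36 subunits by module; points beyond ±2.5 are not shown. In the right ventricle most subunits lie below the black line at their own length.

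Of 16 assembly factors tested, proteins that help to join the modules without staying in the complex, 0 fell and 0 rose in the right ventricle in limma (3 had an unadjusted p under 0.05), with a median of 0.20 as deposited and 0.02 rescaled. The lowest was Ndufaf3, which acts on the Q module, at -0.51 (adjusted p = 0.162), and the highest Nubpl, which inserts iron-sulfur clusters, at 1.05 (adjusted p = 0.0718). Nubpl read only 0, 3.33, 3.40 and 1.13 FPKM in sham right and 4.49, 2.33, 5.67 and 5.19 FPKM in banded right libraries. The factors were listed far below most subunits, with sham right means from 1.96 (Nubpl) to 65.6 FPKM (Ecsit), in the shallowest group. At such levels a lack of calls does not show a lack of change. In the left ventricle 0 of 16 passed (3 at an unadjusted p under 0.05). Ecsit was the 1 factor whose effect differed between ventricles (-0.96, adjusted p = 0.0284). Among 11 regulators of energy genes, Esrra, the estrogen-related receptor alpha that drives respiratory chain genes, fell in the right ventricle (-0.83, adjusted p = 0.0023), and Nrf1 rose (0.80, adjusted p = 0.0437). Ppargc1a, the coactivator of both, read 0.36 (adjusted p = 0.402). Ndufa4, left out of the members, fell as well (-1.04, adjusted p = 0.00512).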

How the data were processed

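Ventricular RNA was measured in 16 libraries, 4 per group by the labels. The deposited FPKM values were made by the authors with STAR 2.5.3a on mm9 and with Cufflinks 2.2.1 and Cuffdiff (FastQC 0.11.5 and R 3.3.1 are also listed), per the submitters' processing notes; the gene annotation is not given in the sources used here. FPKM values are not counts, so limma 3.58.1 (R 4.3.3; trended prior) was fitted to log2(FPKM + 1) of all 4 groups together, for the 12100 genes that reached 1 FPKM in 4 or more libraries, with Benjamini-Hochberg adjustment over all of them. Calls needed an adjusted p under 0.05 in the same direction as deposited and rescaled. A library's scale factor was the median, over 8211 genes that reached 1 FPKM in every library, of its value divided by the gene's geometric mean. A count test was not used. The fit was tested on simulated data.

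Depth was estimated from the steps of low values assuming fragments of 200 nt. Transcript length and GC came from GENCODE M21 (GRCm38) by symbol, for 98.3% of genes and all 36 members. For the length correction, each library's lowess trend (span 0.3) on log2 length, then on GC, was removed. No coordinates were converted between builds.

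Members with a value per library were, in each of the N, Q and P modules, the 2 lowest and the highest right ventricular differences, the core subunits, and up to 3 members called in each other comparison; the rest are given by difference or count, and the values of 1 member, counted in all totals, are not reported here. The members and lists were chosen with earlier results of these data known. Same-numbered right and left libraries were checked for shared deviations: correlations ran from -0.09 to 0.15 and passed 0.1 in 1 of 8, so numbers were not taken as pairs. Identical libraries were not found. The marker lists for fibroblasts, endothelium, mural cells, macrophages, atrium, adipocytes and erythroid cells are given with the closing observations. Other pseudocounts, filters, scalings, priors and left-out libraries were tried.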

Additional observations from a re-analysis of the deposited data

Results flagged for a closer look

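One library of 4 stood apart from the others in 7 of 64 checks of the 16 subunits given by library, by Dixon's criterion, which chance meets in about 1 of 20. Sham left library 4 did so 4 times: Ndufv3 at 1243 FPKM (others 738 to 796), Ndufb9 at 951 (438 to 489), Ndufb7 at 523 (221 to 259) and Ndufa11 at 85.5 (66.8 to 69.7). Ndufa13 was at 193 FPKM in banded right library PS_9564 (others 247 to 258), Ndufv1 at 709 in banded left library PS_9552 (469 to 505) and Ndufb9 at 1014 in sham right library 1 (799 to 835).

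A different effect of banding in the right and the left ventricle, tested as an interaction in limma with its adjusted p under 0.05 on both scales, was found for 10 of these subunits. Of all genes tested, 3.45% were called in that direction and 0.529% in the other. These subunits were chosen partly by their calls in this same comparison, so the count of 10 is a description only. The log2 difference of effects (right minus left, as deposited) was -2.43 for Ndufs6, -2.29 for Ndufb7, -2.14 for Ndufb9, -1.91 for Ndufv3, -1.76 for Ndufa13, -1.73 for Ndufs8, -1.57 for Ndufs3, -1.53 for Ndufa11, -1.45 for Ndufv2 and -1.01 for Ndufv1.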

How the results depend on the processing

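The counts of called members were 21 (right ventricle), 6 (left ventricle), 22 (difference of effects), 7 (sham, right against left) and 12 (banded, right against left) in the fit as reported. With every library brought to the same FPKM sum they were 2, 1, 3, 1 and 0. Of all genes, 0.529% were then called higher in the left ventricle and 0.231% lower in the difference of effects. In the last, banded mice, 0% of all genes were called in either direction. There 24 members had an unadjusted limma p under 0.05, and all 36 lay below 0, with a median of -0.87. With the same sum without Mir6236 and Rn45s, an alternative chosen after seeing the data, they were 9, 1, 11, 1 and 2. Of all genes, 0.562% were then called higher in the left ventricle, 0.851% lower in the difference of effects and 0.132% lower in banded mice. On both scalings the 1 in sham mice was lower in the right ventricle, opposite to the 7. There 24.5% and 29.1% of all genes were called lower. The 2 and the 9 each held 1 member called higher, where 46.9% and 42.8% of all genes were. Right ventricular differences then turned positive for Ndufa9 (0.24 and 0.12), Ndufs1 (0.44 and 0.32) and Ndufv2 (0.41 and 0.29); the cause was not tested. Quantile normalization gave 11 for the difference of effects, 3 for sham mice (2 higher and 1 lower in the right ventricle) and 5 for banded mice. As deposited alone, the left ventricle had 22, sham mice 12 and banded mice 23, where 14.3%, 2.95% and 2.89% of all genes were called in those directions. Library weights gave 14, 2 and 23 for these. A filter at 5 FPKM gave 10 in the left ventricle, the libraries of the comparison alone 0 in sham mice (22 at an unadjusted p under 0.05), and length and GC correction 3 in sham mice. Without the 5 libraries with Rn45s at 0, the right ventricle had 8 and the left ventricle, the difference of effects and banded mice 0 in limma (15, 25 and 20 at an unadjusted p under 0.05). That setting leaves 1 banded left library, assumed to vary like the other groups; 0% of all genes were then called in the left ventricle or in banded mice, while the members' medians stayed at 0.83, -1.499 and -0.86, so these zeros do not bear on stability. The replicate block gave 9 for the difference of effects, 1 in sham and 0 in banded mice (27 at an unadjusted p under 0.05); the labels do not say that same-numbered libraries share an animal.

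Leaving out each library gave 15 to 23 in the right ventricle, 0 to 12 in the left, 17 to 26 for the difference of effects, 1 to 13 in sham mice and 3 to 14 in banded mice. Ndufv2 then ranged from -0.29 to 0.057, Ndufs1 from -0.14 to 0.031 and Ndufa12 from -0.15 to 0.81 in the right ventricle. Of 496 alternative values of single subunits, 444 kept direction and side of the threshold, and 13 changed direction. Sham right libraries are the shallowest, which limits members of few fragments. There Ndufs5, Ndufab1 and Ndufb4 had medians of 0, 6.15 and 1.66 estimated fragments. As said above, their levels may not represent these subunits at any depth.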

Other observations

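In the banded right ventricle, where 10.5% of all genes tested rose and 4.93% fell, 2 of 8 fibroblast markers rose (Col1a1 and Pi16). The median difference of the 8 was 0.59 as deposited and 0.41 rescaled. Their summed level was 815 to 1164 FPKM in sham and 771 to 1233 FPKM in banded libraries, but Gsn made up most of that sum. Gsn averaged 710 FPKM in sham and 559 FPKM in banded right libraries and was not called. Endothelial cells had 1 of 8 risen (Pecam1), mural cells 2 of 6 (Cspg4 and Rgs5) and macrophages 1 of 7 (Cd14). Their median differences as deposited were 0.49, 0.20 and 0.42, against 0.26 for all genes. Of 5 atrial markers tested, Kcnj3 and Stard10 fell, and of 4 erythroid markers tested Hba-a2 fell in the right and rose in the left ventricle. Adipocyte markers summed to 0.118 to 17.8 FPKM over the 16 libraries, and Ucp1 was at 0 in all groups. Cfd, the 1 of them tested, was not called in the right or left ventricle; it reached 11.7 FPKM in banded right library PS_9552 and 11.5 FPKM in sham right library 1. Of 12 cardiomyocyte markers, Myl2, Myl3, Tcap and Tnni3 fell in the right ventricle and Ttn, a very long transcript, rose; in the left ventricle Actn2, Myl2 and Tnni3 rose.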
